A study of Mus musculus with 51 samples.

Results

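Gene expression of normal mouse lung epithelium was described from the 5 libraries of EpCAM+ cells sorted by flow cytometry out of saline-treated lungs, of 51 libraries in all. They were set against the 15 libraries of the other sorted fractions of saline lungs, 5 each of CD31+ (endothelial), CD45+ (leukocyte) and triple-negative cells, which carry none of the 3 surface markers. All came from male C57/B6 mice that had received saline into the trachea and were sampled at day 14. Saline lungs are therefore instilled lungs rather than untouched ones, and no library of unsorted lung was analysed here. The design text counts 5 saline animals for the 20 saline libraries, so libraries of different fractions share animals, although which ones was not given. The p-values measure the spread between these libraries. EpCAM is the antigen of the sort, so a fraction called EpCAM+ may hold any lung epithelial cell type that displayed it, and the share of each was not measured. In such bulk samples fewer cells of a type and less RNA per cell cannot be told apart.

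The lung surface is lined by epithelium throughout. In the alveoli flat type I cells form the gas exchange surface, and cuboidal type II cells make, store and secrete surfactant, the film of lipid and protein that lowers surface tension. The airways are lined by secretory club cells, ciliated cells that move mucus, and rarer basal, neuroendocrine and tuft cells. All derive from endoderm that expresses the transcription factor NKX2-1, and all share junctions, keratins and apical proteins that other lung cells lack or hold at low levels.

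The sort gene was carried by the fraction named for it. Epcam, the gene of the homophilic adhesion protein used for the sort, lies on chromosome 17, 87635979 to 87651127 (positions are those of RefSeq on GRCm38.p6). Its level was 190.5, 180.1, 169.8, 181 and 179 CPM (counts per 1000000 of scaled library size) in the 5 EpCAM+ libraries. Over the other 15 libraries its lowest, median and highest values were 0.362, 2.60 and 6.78 CPM. Because the sort used this protein, the separation is a check and not a finding. Pecam1, which encodes CD31, averaged 41.9 ± 14.8 CPM (mean ± SD, n = 5 here and below) in EpCAM+ and 3433 ± 129.8 CPM in CD31+ libraries. Ptprc, which encodes CD45, averaged 7.15 ± 2.53 CPM in EpCAM+ and 1441 ± 185 CPM in CD45+ libraries. Col1a1, a fibroblast collagen gene, averaged 21.2 ± 3.27 CPM in EpCAM+ and 6458 ± 1312 CPM in triple-negative libraries. EpCAM+ libraries held 23154144 to 29137791 counts, against 17789524 to 36514885 in the other 15.

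Of 18799 genes tested, 7017 (37.3%) were higher in EpCAM+ libraries than the mean of the other 3 fractions, and 7847 (41.7%) were lower, at an adjusted p under 0.05 (edgeR's quasi-likelihood F test, Benjamini-Hochberg over all genes). Since a mean can be moved by 1 fraction, each fraction was also asked for separately. EpCAM+ was higher than CD31+ for 6934 genes (36.9%), than CD45+ for 7386 (39.3%) and than triple-negative for 6929 (36.9%), and lower for 7152 (38%), 7743 (41.2%) and 7168 (38.1%) in the same order. A gene that was higher in all 3 of these comparisons is called higher than each below, and 3673 genes (19.5%) were. Among them 2195 exceeded every other fraction at least 2-fold, 974 at least 8-fold, 404 at least 32-fold and 73 at least 128-fold. In the opposite direction 2907 genes (15.5%) were lower than each. The lowest EpCAM+ library lay above all 15 others for 3295 genes (17.5%), and the highest lay below all 15 for 1849 (9.84%). Differences below are on the log2 scale, EpCAM+ minus the mean of the log2 levels of the other 3 fractions, ± SE. Their median over all genes tested was -0.08. The mean of the others is this mean of log2 levels throughout. A gene called higher than it can therefore have a higher CPM in another fraction, and even a higher average CPM over the others.

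Surfactant genes took a large part of the counts. The 10 highest EpCAM+ levels in CPM, which are not scaled for length, among genes higher than each belonged to Sftpc, Lyz2, Sftpb, Sftpa1, Slc34a2, Scd1, Scgb1a1, Cxcl15, mt-Cytb and Cbr2. Sftpc, the gene of surfactant protein C (chromosome 14, 70520941 to 70524081), stood at 109784, 103175, 110652, 116766 and 105655 CPM in the 5 EpCAM+ libraries. In the other 15 libraries its lowest, median and highest values were 62.3, 246 and 1237 CPM. It took 9.62% to 10.5% of all counts in an EpCAM+ library. Per length of exon, where levels of different genes can be compared, Sftpc reached 105615 CPM per kb, against 13384 for Sftpb, 8865 for Sftpa1 and 23168 for the club cell secretoglobin gene Scgb1a1. The 10 highest genes of a library together held 22.7% ± 0.297 of counts in EpCAM+ libraries, against 4.90% ± 0.175 in CD31+, 4.52% ± 0.420 in CD45+ and 9.70% ± 0.785 in triple-negative libraries. Each of the 3 differences had an exact two-sided permutation p of 0.00794, the smallest that 5 against 5 libraries allow, and the same after adjustment over the 3. These permutations treated libraries as independent, although libraries of different fractions share animals and the pairing was not given.

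The 20 largest differences among genes higher than each, with at least 10 CPM in EpCAM+, ran from 8.17 to 8.88. Several were alveolar type II genes (Slc34a2, Lamp3, Hc, Sftpc, Sftpa1, Cxcl15 and Fabp12), and Slc26a9 is described with the channels below, while the others are on no list. Spink5 encodes a serine protease inhibitor best known from skin. It averaged 69.6 ± 17.2 CPM in EpCAM+ libraries and no more than 0.209 CPM on average in another fraction (difference 8.66 ± 0.22, adjusted p = 2.5e-17). Cst8, of the cystatin family of protease inhibitors, averaged 40.3 ± 5.40 CPM in EpCAM+ libraries (difference 8.76 ± 0.23, adjusted p = 1.8e-17). Prmt8, an arginine methyltransferase gene known chiefly from brain, averaged 102 ± 8.46 CPM (difference 8.23 ± 0.26). Ros1, an orphan receptor tyrosine kinase gene known for its fusions in lung cancer, averaged 41.98 ± 11.8 CPM (difference 8.28 ± 0.36). Kcne2, a potassium channel subunit gene, averaged 198 ± 13.7 CPM (difference 8.26 ± 0.32). Mlc1, Tinag and Arhgef38 completed the protein-coding members of this group, at 452, 97.6 and 36.1 CPM on average. For each of these 8 genes the lowest EpCAM+ library lay above the highest of the other 15.

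Long non-coding RNAs made up 4 of those 20 genes. Gm31251 (chromosome 14, 54975264 to 55005006) had the largest difference of the 20. It was measured at 14.2, 14.1, 10.1, 9.30 and 14.3 CPM in EpCAM+ libraries, with a highest value among the other 15 of 0.126 CPM. Gm33248 averaged 119.9 ± 21.8 CPM, Gm34751 41.5 ± 6.25 CPM and 5033403H07Rik 10.6 ± 0.426 CPM in EpCAM+ libraries. Across all tested genes, 367 of 1667 annotated as long non-coding (22.0%) were higher than each, as were 3028 of 15282 protein-coding genes (19.8%).

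The alveolar type II list, 24 genes of surfactant proteins, lamellar bodies and their regulators, was higher without exception. All 24 tested members were higher than the mean of the others and higher than each, against 37.3% and 19.5% of all genes. The lists were chosen with earlier results of these data known, so this uniformity is a description and not a test. The same holds for the other lists below. Their median difference was 7.99, against -0.08 over all genes. Each other fraction held a small share of the EpCAM+ level of a typical member, with medians of 0.425% in CD31+, 0.736% in CD45+ and 0.205% in triple-negative libraries.

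Promoters of 4 members of the type II and ciliated lists are shown because they hold short motifs of factors described further down. These are RefSeq promoters on GRCm38.p6, 250 bases before to 50 bases after the start, 5′ to 3′ on the gene's strand. Capitals mark CTCAAG (a core that NKX2-1 binds), TGTTTAC (a core that FOXA and other forkhead proteins bind) or GTTGCCA (a core that RFX proteins bind), on either strand. Sftpb is shown for its pair of NKX2-1 cores, Sftpa1 for a single one and Lamp3 for a FOXA core. Sntn, a gene of ciliated cells, is shown for an RFX core and a separate forkhead core. The promoters lie at chr6:72304360-72304659 (Sftpb, plus strand), chr14:41131538-41131837 (Sftpa1, plus strand), chr16:19706316-19706615 (Lamp3, minus strand) and chr14:13670626-13670925 (Sntn, plus strand).

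Sftpb: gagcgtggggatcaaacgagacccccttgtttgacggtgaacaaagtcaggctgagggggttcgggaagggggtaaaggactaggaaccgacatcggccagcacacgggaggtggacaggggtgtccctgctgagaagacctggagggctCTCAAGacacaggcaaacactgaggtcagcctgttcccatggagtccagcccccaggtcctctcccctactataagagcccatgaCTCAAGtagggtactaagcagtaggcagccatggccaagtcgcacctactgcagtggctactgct
Sftpa1: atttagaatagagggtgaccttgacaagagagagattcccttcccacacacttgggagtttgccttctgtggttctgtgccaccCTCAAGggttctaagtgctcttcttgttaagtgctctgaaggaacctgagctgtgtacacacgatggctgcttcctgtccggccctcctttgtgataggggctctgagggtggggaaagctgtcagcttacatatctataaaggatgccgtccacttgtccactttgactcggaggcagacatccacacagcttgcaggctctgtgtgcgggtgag
Lamp3: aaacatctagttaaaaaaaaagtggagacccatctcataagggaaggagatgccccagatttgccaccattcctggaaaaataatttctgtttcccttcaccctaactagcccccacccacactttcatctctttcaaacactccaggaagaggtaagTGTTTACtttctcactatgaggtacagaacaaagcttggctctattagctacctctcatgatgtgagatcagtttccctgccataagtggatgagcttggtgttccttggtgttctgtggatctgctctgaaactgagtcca
Sntn: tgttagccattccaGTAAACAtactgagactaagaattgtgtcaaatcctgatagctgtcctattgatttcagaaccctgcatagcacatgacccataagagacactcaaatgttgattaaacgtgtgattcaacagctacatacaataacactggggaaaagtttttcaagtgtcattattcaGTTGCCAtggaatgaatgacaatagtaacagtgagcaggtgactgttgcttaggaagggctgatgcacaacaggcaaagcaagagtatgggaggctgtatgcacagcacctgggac

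In Sftpb the cores begin at positions -100 and -15 from the start, in Sftpa1 at -166, in Lamp3 at -92, and in Sntn at -236 (forkhead, minus strand) and -66 (RFX). No match shared a base with another in these promoters. CTCAAG was found in 6 of 21 promoters of the type II list (28.6%), in 7 of 24 of the club list (29.2%) and in 7 of 29 of the ciliated list (24.1%), against 15.9% of all 32851 promoters and 16% of those of genes at least 32-fold higher than each. TGTTTAC was found in 41 of 394 promoters of genes at least 32-fold higher than each (10.4%) and in 59 of 889 at the 8-fold limit (6.64%), against 3.65% of all promoters, 3.41% of those of all genes higher than each and 3.41% of those of genes lower than each. By list, TGTTTAC was found in 3 of 21 type II (14.3%), 0 of 24 club and 2 of 29 ciliated promoters (6.90%). GTTGCCA was found in 7 of 29 promoters of the ciliated list (24.1%), against 4.38% of all. It was also found in 78 of 889 promoters at the 8-fold limit (8.77%) and in 25 of 394 at the 32-fold limit (6.35%). ACCGGTT, a core that GRHL proteins bind, was found in 5 of those 394 promoters (1.27%), against 1.02% of all. Among promoters of tested genes the shares were 14.3% for CTCAAG, 2.91% for TGTTTAC, 4.07% for GTTGCCA and 1.35% for ACCGGTT. A match is a run of letters and not a bound site.

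Among surfactant components, Sftpb, whose product packs surfactant lipid, averaged 26339 ± 1662 CPM in EpCAM+ libraries (difference 8.13 ± 0.503, adjusted p = 1.4e-11). Sftpa1 and Sftpd, the collectins that bind microbes in the airspace, averaged 25354 ± 1400.5 and 5217 ± 364 CPM. For lamellar bodies, the storage organelle of surfactant, Abca3 encodes the lipid pump and was measured at 4217, 3463, 3481, 3583 and 3737 CPM in EpCAM+ libraries, with 90.7, 117 and 206 CPM as the lowest, median and highest of the other 15. Its difference was 4.83 ± 0.06 (adjusted p = 1.7e-21), smaller than that of Sftpc although no library overlapped. Lamp3, a membrane glycoprotein of the same organelle, stood at 2384, 2328, 1988, 2129.6 and 2295 CPM in EpCAM+ libraries, against 1.39, 5.59 and 18.1 CPM (lowest, median, highest) in the other 15 (difference 8.46 ± 0.40, adjusted p = 2.3e-13). Slc34a2, a sodium-dependent phosphate transporter of the apical membrane, averaged 15074 ± 892 CPM (difference 8.49 ± 0.498).

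Some type II genes were also well measured in leukocytes. Lyz2, a lysozyme gene that macrophages share, averaged 29367 ± 3146 CPM in EpCAM+ and 4784 ± 346 CPM in CD45+ libraries (difference between the pair 2.62 ± 0.47, adjusted p = 4.4e-05). Lyz1, its neighbouring paralogue, averaged 4417 ± 1869.8 CPM in EpCAM+ and 86.6 ± 16.1 CPM in CD45+ libraries, and reads shared by the paralogues could have been split by the authors' counting. Napsa, an aspartic protease that processes surfactant protein B, averaged 2760.3 ± 189.6 CPM in EpCAM+ and 257 ± 29.3 CPM in CD45+ libraries. The lysosomal protease genes Ctsh and Ctsc had the smallest differences of the list together with Rab27a, at 3.30 ± 0.10, 3.25 ± 0.09 and 2.97 ± 0.07. All 3 nonetheless passed the threshold against each fraction.

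**Figure D1:**
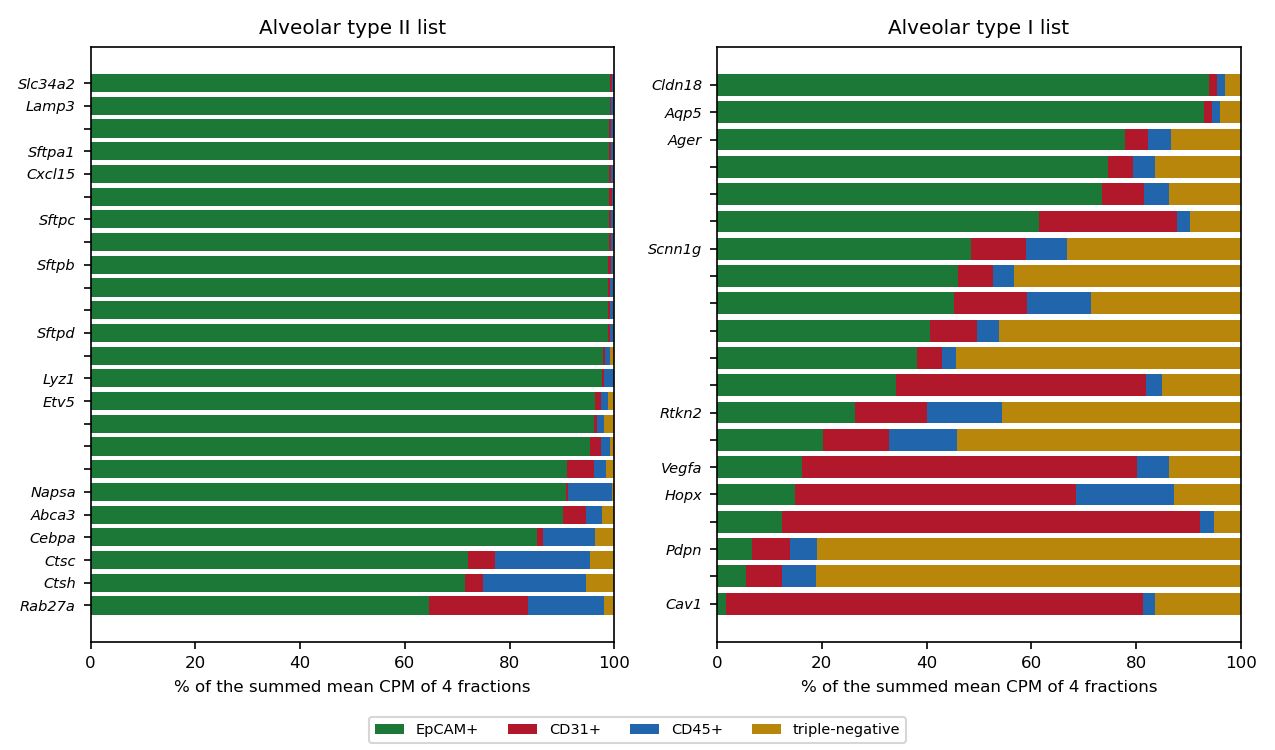
Share of the summed mean CPM of the 4 saline fractions held by each fraction (horizontal axis, percent; each mean over 5 libraries), for every tested member of the alveolar type II list (left, 24 genes) and the alveolar type I list (right, 20 genes), ordered by the EpCAM+ share; only genes with values in the text are labelled. Type II members lie mostly in the EpCAM+ fraction, while type I members such as Cav1, Pdpn and Hopx lie mostly in CD31+ or triple-negative libraries.

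Type I genes behaved otherwise. Of 20 tested members of the alveolar type I list, 12 were higher than the mean of the others, 3 were lower, and 6 were higher than each (Cldn18, Aqp5, Ager, Cyp2b10, Gprc5a and Lmo7). The shares of all genes tested were 37.3%, 41.7% and 19.5% in the same order. The median difference was 1.57. Ager, the receptor gene for advanced glycation end products and a standard type I marker, was measured at 1813, 1359.7, 1537, 1602 and 1556 CPM in EpCAM+ libraries. In triple-negative libraries it was 399, 21.9, 456, 21.8 and 454 CPM, high in 3 libraries and low in Saline_Negative_660 and Saline_Negative_662, and in no library as high as in EpCAM+. Its difference was 3.62 ± 0.51 (adjusted p = 2.3e-06). Cldn18, a claudin gene of alveolar tight junctions, averaged 1046 ± 98.9 CPM (difference 5.59 ± 0.49), and Aqp5, a water channel gene, 638.99 ± 42.5 CPM (difference 5.47 ± 0.46).

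Hopx and Pdpn, 2 other standard markers of type I cells, did not mark the EpCAM+ fraction. Hopx, an atypical homeodomain gene, stood at 77.5, 49.00, 59.7, 56.7 and 61.6 CPM in EpCAM+ libraries, against 247, 216, 234, 197 and 209 CPM in CD31+ libraries. It was lower in EpCAM+ than in CD31+ (-1.86 ± 0.43, adjusted p = 7.1e-04) and had no difference past the threshold from the mean of all 3 (-0.66 ± 0.36, adjusted p = 0.098). Without Saline_Negative_660 or Saline_Negative_662 that difference passed (both -0.75, adjusted p = 0.0278 and 0.0178), as it did with scaling to library totals (-0.86, adjusted p = 0.0418) and with all 51 libraries in the fit (-0.65, adjusted p = 0.0402). It also passed without libraries 2 and 4 of each fraction in number order (-0.79, adjusted p = 6.6e-05). Pdpn, the podoplanin gene, averaged 8.68 ± 2.78 CPM in EpCAM+ and 104 ± 11.3 CPM in triple-negative libraries (difference between the pair -3.58 ± 0.32, adjusted p = 5.8e-09). Every EpCAM+ library lay below every triple-negative one for Pdpn. Cav1, the caveolin gene that endothelium shares, averaged 54.2 ± 15.7 CPM in EpCAM+ and 2499.6 ± 142 CPM in CD31+ libraries. Rtkn2, another type I marker, had a difference of 0.35 ± 0.52 (adjusted p = 0.55). Vegfa, an angiogenic factor gene that type I cells express, averaged 349 ± 37.2 CPM in EpCAM+, 1376 ± 152 CPM in CD31+ and 297 ± 85.3 CPM in triple-negative libraries.

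**Figure D2:**
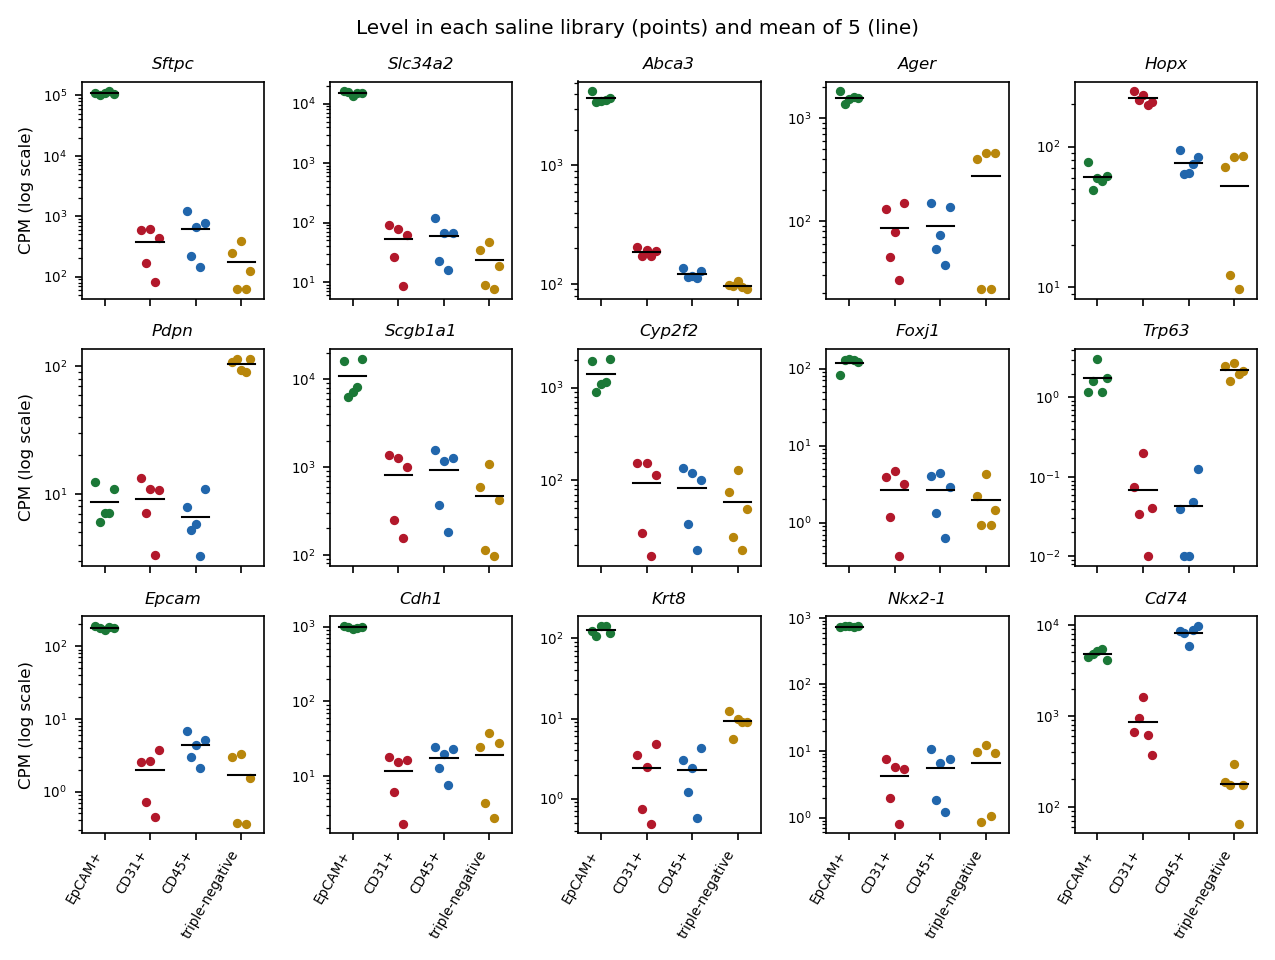
Level (vertical axis, CPM on a log scale that differs between panels; values under 0.01 drawn at 0.01) of 15 genes in each saline library (points, 5 per fraction) with the mean of 5 (line), by fraction. Sftpc, Slc34a2, Abca3, Epcam, Cdh1 and Nkx2-1 are high in every EpCAM+ library and low in every other, Hopx is highest in CD31+ and Pdpn in triple-negative libraries, and Cd74 is highest in CD45+.

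Airway secretory genes were the next group. All 24 tested members of the club and secretory list were higher than the mean of the others and 22 were higher than each. Among all genes tested 37.3% and 19.5% were so called. The median difference of the list was 4.20. Scgb1a1, the gene of the main club cell secretory protein (chromosome 19, 9083642 to 9087956), stood at 16338, 6333, 7076, 8194 and 17199 CPM in EpCAM+ libraries, against 96.03, 596 and 1578 CPM (lowest, median, highest) in the other 15. The first and last of these EpCAM+ libraries, Saline_EpCAM_654 and Saline_EpCAM_658, were about 2-fold above the other 3, and none overlapped with the other fractions. Its difference was 3.98 ± 0.52 (adjusted p = 9.9e-07). Cyp2f2, a club cell cytochrome, followed the same order at 1918, 891, 1082, 1138 and 2050.4 CPM. Cbr2, a carbonyl reductase gene, did not, at 5695, 4983, 5567, 5832 and 5293 CPM. Aldh1a1 and Cldn10 were the 2 members that were not higher than each, as neither passed the threshold against triple-negative libraries (adjusted p = 0.81 and 0.41). Aldh1a1 averaged 282 ± 45.99 CPM in EpCAM+ and 306 ± 133 CPM in triple-negative libraries.

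Club genes varied more between EpCAM+ libraries than type II genes. The median coefficient of variation over the 5 EpCAM+ libraries was 37.4% for the club members higher than each, 20.8% for the ciliated members and 6.69% for the type II members. Saline_EpCAM_654 and Saline_EpCAM_658 were the highest 2 for 18 of 24 club genes (75%) and 14 of 20 type I genes (70.0%), against 0 of 29 ciliated genes, 5 of 24 type II genes (20.8%) and 14.8% of the 3673 genes higher than each. This was looked at after the values had been seen.

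Ciliated genes marked the fraction throughout. All 29 tested members of the ciliated and motile axoneme list were higher than the mean of the others and 25 higher than each (median difference 5.08). Shares over all genes tested were 37.3% and 19.5%. Foxj1, the master transcription factor gene of motile cilia (chromosome 11, 116330704 to 116335499), was measured at 81.8, 127, 134, 131 and 120.5 CPM in EpCAM+ libraries, against 0.366, 2.23 and 4.73 CPM (lowest, median, highest) in the other 15. Saline_EpCAM_654 was the lowest of the 5, and no other fraction reached it (difference 5.62 ± 0.34, adjusted p = 8.2e-12). Among structural genes, the dynein heavy chain genes Dnah5 and Dnah9 averaged 39.1 ± 7.86 and 39.4 ± 7.84 CPM, and Ccdc153, an axonemal marker gene, 77.5 ± 15.8 CPM. Sntn, whose product lies at the tips of cilia, averaged 8.04 ± 1.79 CPM (difference 5.82 ± 0.39). Mcidas, a switch gene of multiciliated cells, averaged 1.17 ± 0.447 CPM in EpCAM+ libraries and had 0 counts in all CD31+ and triple-negative libraries. Myb, Tppp3, Rfx2 and Rfx3 were not higher than each. Myb, a regulator of early ciliogenesis that blood cells also use, averaged 17.05 ± 2.88 CPM in EpCAM+ and 75.8 ± 119 CPM in CD45+ libraries.

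Genes of rare airway types gave no uniform picture. The basal list had shares near those of all genes tested, of which 37.3% were higher than the mean of the others, 41.7% lower and 19.5% higher than each. In it 5 of 12 tested members were higher than the mean of the others, 4 were lower and 3 (Krt5, Krt15 and Krt17) were higher than each. Krt5, a basal cell keratin gene, stood at 2.58, 2.59, 4.34, 3.10 and 3.39 CPM in EpCAM+ libraries. Trp63, the basal cell transcription factor gene, averaged 1.75 ± 0.790 CPM in EpCAM+ and 2.20 ± 0.449 CPM in triple-negative libraries, which did not differ past the threshold (-0.32 ± 0.32, adjusted p = 0.38). Of 11 tested neuroendocrine genes 7 were higher and 4 higher than each. Calca, which encodes the neuropeptide CGRP, averaged 3.21 ± 0.992 CPM in EpCAM+ and 13.8 ± 4.09 CPM in CD45+ libraries. Of 8 tested genes of tuft cells and ionocytes 5 were lower and 3 higher. Pou2f3, the tuft cell factor gene, averaged 0.00746 ± 0.0167 CPM in EpCAM+ libraries, and Foxi1, the ionocyte factor gene, had 2 counts in all 5 together and was not tested. Cftr, the chloride channel gene placed on that list as an ionocyte marker, went the other way at 122, 143, 104, 112 and 128 CPM in EpCAM+ libraries (difference 7.30 ± 0.25, adjusted p = 1.8e-15), with at most 2.13 CPM in any of the other 15.

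Genes that epithelial types share were nearly as uniform as the type II list. Of 23 tested genes of epithelial identity and the apical surface all 23 were higher than the mean of the others, and 22 higher than each (median difference 5.20), Epcam included. All genes tested gave 37.3% and 19.5%. Esrp1 and Esrp2, the splicing regulator genes that give epithelial isoforms, averaged 98.1 ± 4.36 and 217 ± 17.5 CPM, with differences of 6.71 ± 0.31 and 5.47 ± 0.21. Muc1, a membrane mucin gene, averaged 1288 ± 55.97 CPM (difference 7.21 ± 0.31). Prss8 and St14, a pair of membrane serine protease genes, averaged 187 ± 8.51 and 179 ± 7.02 CPM, and Spint1 and Spint2, which encode their inhibitors, 124 ± 4.95 and 545 ± 20.03 CPM. Macc1, a gene named for its link to colon cancer metastasis, had the largest difference of the list and averaged 54.2 ± 6.46 CPM in EpCAM+ libraries. Cd24a was the member not higher than each, at 152 ± 24.8 CPM in EpCAM+, 162 ± 32.9 CPM in CD31+ and 122 ± 27.8 CPM in CD45+ libraries.

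Keratin genes were mostly higher. Of 12 tested keratin genes 9 were higher than the mean of the others, 2 lower and 6 higher than each. For all genes tested these shares were 37.3%, 41.7% and 19.5%. Krt8, a simple epithelial keratin gene, stood at 124, 108, 143, 143 and 118 CPM in EpCAM+ libraries, against 0.488, 3.48 and 12.5 CPM (lowest, median, highest) elsewhere (difference 5.10 ± 0.29, adjusted p = 3.6e-12). Its partner Krt18 averaged 353 ± 64.4 CPM (difference 5.11 ± 0.31). Krt23 had the largest difference of the family, 7.71 ± 0.27, at 140.1 ± 6.04 CPM. Krt7 and Krt19 were held by triple-negative libraries as well. Krt19 averaged 128 ± 14.1 CPM in EpCAM+ and 77.8 ± 25.05 CPM in triple-negative libraries (difference between the pair 0.72 ± 0.51, adjusted p = 0.20). Krt80 was lower than the mean of the others (-1.79 ± 0.13) and averaged 608 ± 73.1 CPM in CD31+ libraries, against 42.9 ± 4.46 CPM in EpCAM+.

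Junction genes separated by component. Of 30 tested tight junction genes 24 were higher than the mean of the others and 18 higher than each (median difference 2.68). Over all genes tested 37.3% and 19.5% were. Cldn3, Cldn7 and Cldn18, claudin genes of alveolar and airway cells, had differences of 6.92 ± 0.38, 6.16 ± 0.30 and 5.59 ± 0.49. Cldn4, a claudin gene known to rise in injured lung, averaged 12.9 ± 3.79 CPM and Cldn3 475 ± 49.1 CPM in EpCAM+ libraries. The polarity gene Crb3 and the scaffold genes Cgn and Tjp3 had differences of 5.66 ± 0.22, 4.44 ± 0.32 and 4.64 ± 0.13. Tjp1, the gene of the general scaffold ZO-1, averaged 211 ± 15.3 CPM in EpCAM+ and 1051 ± 62.8 CPM in CD31+ libraries, and had no difference past the threshold from the mean of the 3 (0.25 ± 0.17, adjusted p = 0.19; without Saline_CD45_644, 0.33 and 0.0433). Ocln, which encodes occludin, was likewise not higher than in CD31+ (-0.74 ± 0.41, adjusted p = 0.11). Cldn5, the endothelial claudin gene, averaged 21.1 ± 8.02 CPM in EpCAM+ and 1897 ± 187 CPM in CD31+ libraries.

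Adhesion genes divided as well. Of 23 tested genes of adherens junctions and desmosomes 19 were higher, 4 lower and 10 higher than each. In the same order the shares of all genes tested were 37.3%, 41.7% and 19.5%. Cdh1, the gene of E-cadherin (chromosome 8, 106603350 to 106670247), stood at 1021, 991, 919.8, 962 and 999.9 CPM in EpCAM+ libraries, against 2.32, 16.2 and 37.2 CPM (lowest, median, highest) in the other 15 (difference 5.95 ± 0.43, adjusted p = 1.7e-10). The 4 lower members were the other cadherin genes Cdh2, Cdh3, Cdh5 and Cdh11. Cdh5, the endothelial cadherin gene, averaged 56.3 ± 20.6 CPM in EpCAM+ and 4749 ± 188 CPM in CD31+ libraries. The desmosome genes Dsp, Dsg2 and Pkp2 had differences of 4.72 ± 0.21, 4.53 ± 0.27 and 4.32 ± 0.23. Catenins were more widely held, as Ctnna1, Ctnnd1 and Jup, with differences of 0.38 ± 0.08, 0.40 ± 0.16 and 0.35 ± 0.15, were each higher in CD31+ than in EpCAM+ on average, whereas Ctnnb1, the gene of beta-catenin, was higher than each at 1719.9 ± 112 CPM. The calls of Ctnnd1 and Jup against the mean were lost under several alternatives, among them scaling to library totals, at 0.21 and 0.16.

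**Figure D3:**
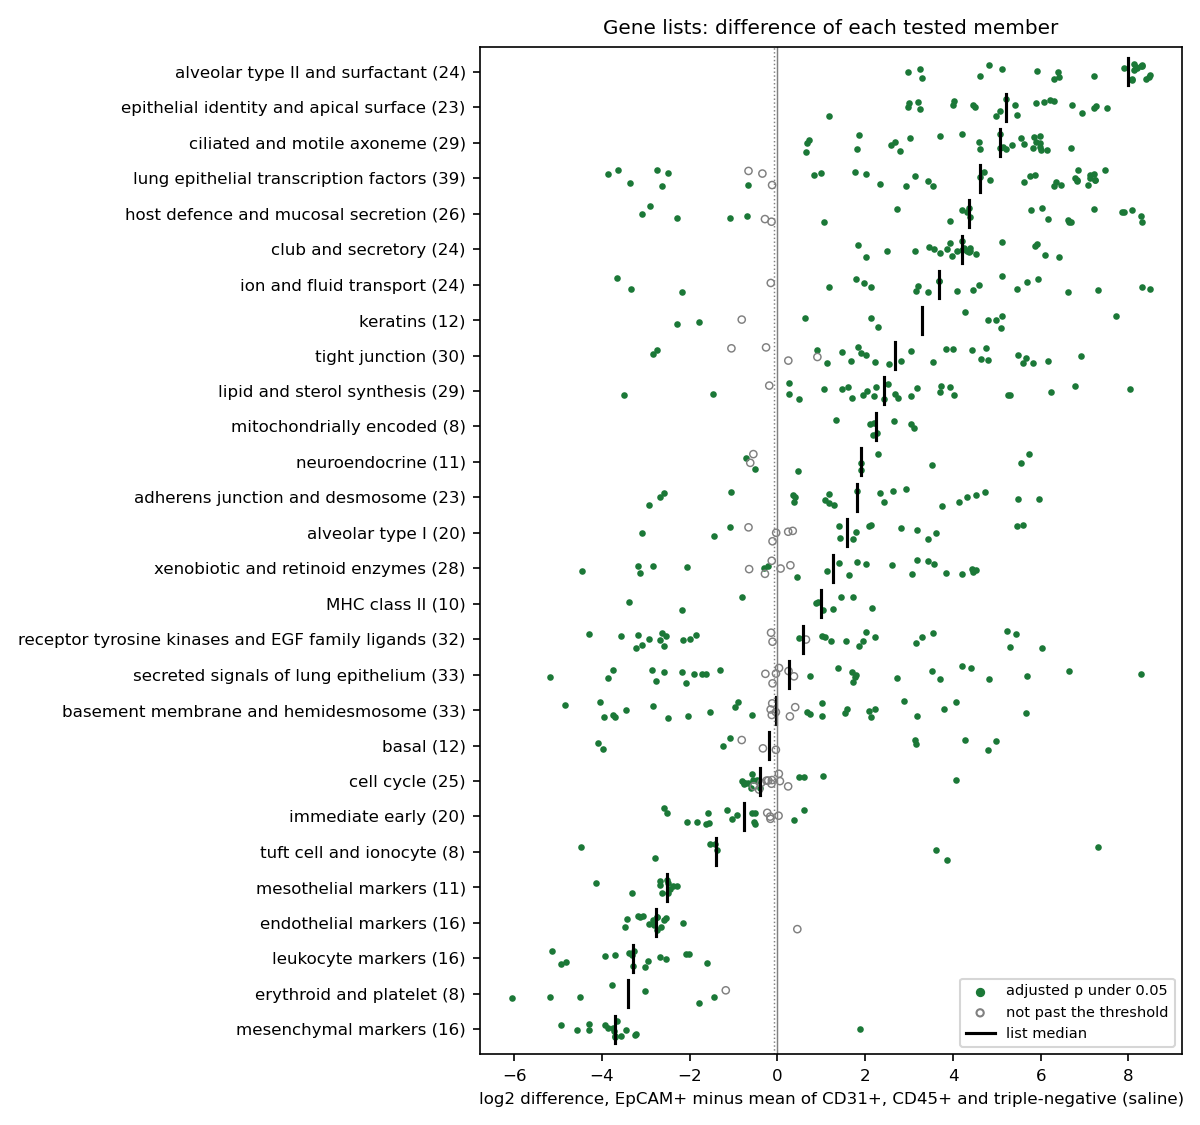
Difference of each tested list member (horizontal axis, log2 level in EpCAM+ minus the mean log2 level of CD31+, CD45+ and triple-negative saline libraries) for 28 gene lists ordered by their median (black bar), with the number tested in brackets. Filled points have an adjusted p under 0.05, open points do not, and the dotted line is the median over all genes. The alveolar type II list is highest, at 7.99, and the mesenchymal list lowest, at -3.71.

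Lung transcription factor genes mostly marked the EpCAM+ fraction, though the list also holds factors of other lung cells. Of 39 tested members 29 were higher than the mean of the others, 7 lower and 24 higher than each (median difference 4.61). All genes tested gave 37.3%, 41.7% and 19.5%. Nkx2-1, the factor gene that specifies lung (chromosome 12, 56531935 to 56536908), stood at 715, 755, 739.9, 722 and 747 CPM in EpCAM+ libraries, against 0.813, 5.80 and 12.2 CPM (lowest, median, highest) in the other 15 (difference 7.09 ± 0.48, adjusted p = 6.8e-11). The EpCAM+ values spanned a narrow range and the groups did not overlap. The largest differences of the list belonged to the Iroquois homeobox genes Irx1, Irx2 and Irx5 (7.46 ± 0.43, 7.25 ± 0.32 and 7.25 ± 0.30). Ehf and Tfcp2l1 had 7.12 ± 0.27 and 7.12 ± 0.23. Irx1 averaged 410.2 ± 107 CPM and Irx3 285 ± 15.7 CPM in EpCAM+ libraries.

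The pioneer factor genes Foxa1 and Foxa2 averaged 152 ± 7.24 and 108 ± 1.90 CPM in EpCAM+ libraries, with differences of 6.79 ± 0.29 and 6.34 ± 0.37. Those of the ETS family, Elf3, Elf5 and Ehf, averaged 109 ± 15.6, 79.8 ± 16.7 and 200.5 ± 5.64 CPM. Grhl2, a grainyhead gene that controls epithelial junctions, averaged 87.2 ± 4.04 CPM (difference 6.46 ± 0.29). Type II regulators showed another pattern in part, as Etv5, a target of FGF signalling, had a difference of 6.29 ± 0.20, whereas Cebpa, which myeloid cells also use, had 4.61 ± 0.15 with 678 ± 35.7 CPM in EpCAM+ and 78.7 ± 25.7 CPM in CD45+ libraries. Sox2, the airway factor gene, averaged 9.32 ± 1.89 CPM and Sox9, of the embryonic distal tip, 0.509 ± 0.280 CPM. Sox9 did not pass the threshold (-0.34 ± 0.62, adjusted p = 0.62), and triple-negative libraries averaged 16.7 ± 5.08 CPM. Gata6 and Foxp2 were not higher than each, since triple-negative libraries averaged 119 ± 22.5 and 18.2 ± 4.89 CPM, against 84.7 ± 7.67 and 16.4 ± 1.59 CPM in EpCAM+. The lower members were Foxp1, Klf4, Spi1, Sox17, Tbx4, Foxf1 and Tbx5, of which Foxf1 averaged 11.1 ± 4.02 CPM in EpCAM+ and 921 ± 52.5 CPM in CD31+ libraries.

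**Figure D4:**
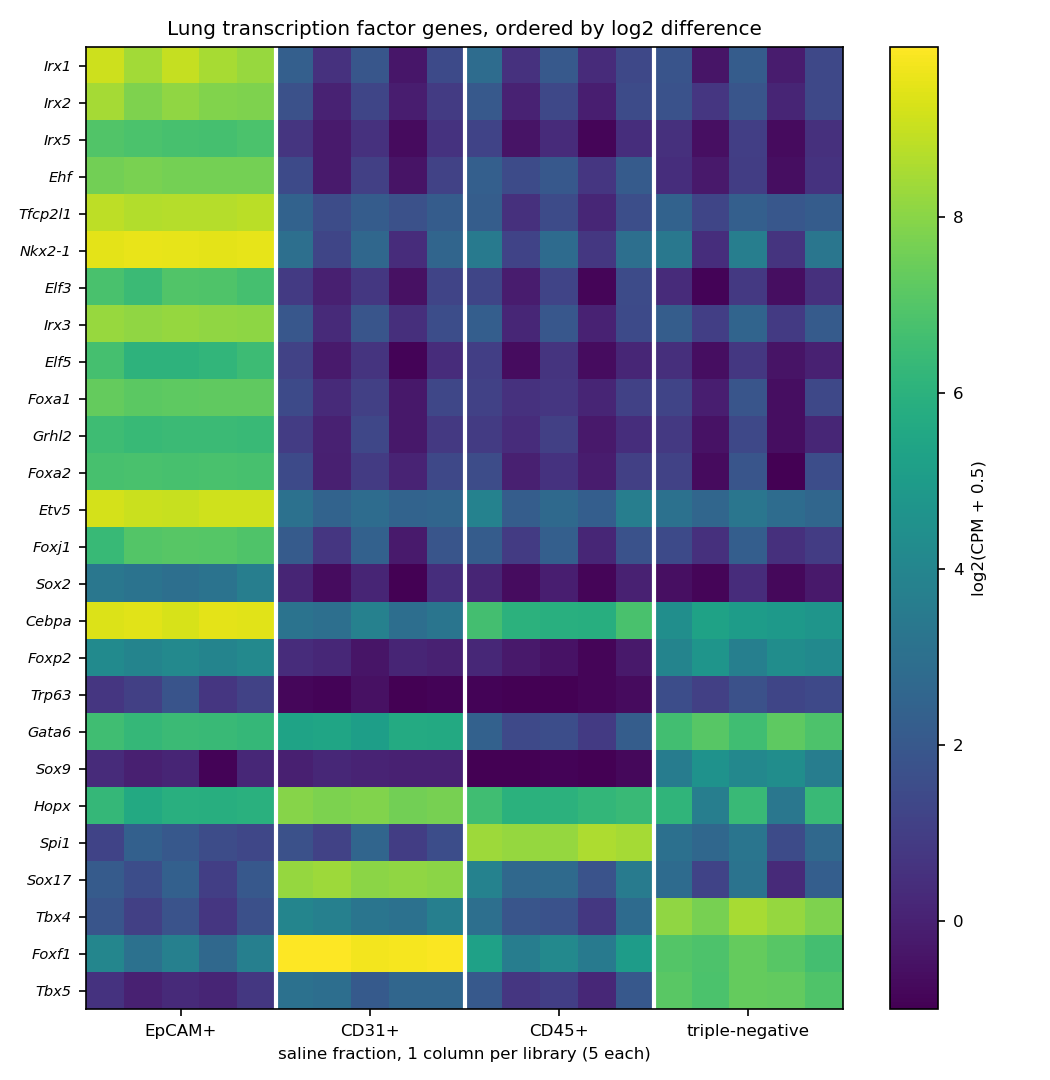
Level of 26 of the 39 tested lung transcription factor genes (rows, ordered by log2 difference from highest to lowest) in the 20 saline libraries (columns, 5 per fraction), as log2(CPM + 0.5) by colour. The upper rows are bright in all 5 EpCAM+ columns and dark elsewhere, while the lowest rows are bright in CD31+ (Sox17, Foxf1), CD45+ (Spi1) or triple-negative (Tbx4, Tbx5) columns.

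Channels and transporters that move salt, water and phosphate across the epithelium were mostly higher. Of 24 tested members 20 were higher than the mean of the others, 3 lower and 16 higher than each. Shares over all genes tested were 37.3%, 41.7% and 19.5%. Slc26a9, an anion channel gene, averaged 742 ± 51.4 CPM (difference 8.31 ± 0.46, adjusted p = 2.4e-12). The subunit genes of the sodium channel ENaC stood at 364 ± 52.1 CPM for Scnn1a, 51.2 ± 15.7 CPM for Scnn1b and 24.2 ± 8.81 CPM for Scnn1g in EpCAM+ libraries. Scnn1a and Scnn1b were higher than each. Scnn1g, with 16.6 ± 14.3 CPM in triple-negative libraries, did not differ from these past the threshold (0.55 ± 0.67, adjusted p = 0.46). The sodium pump subunit gene Atp1b1 was higher than each, with a difference of 5.12 ± 0.22. Water channels divided, for Aqp5 was higher than each and Aqp1, the endothelial water channel gene, lower than each at 60.5 ± 20.2 CPM in EpCAM+ and 3946 ± 328 CPM in CD31+ libraries.

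Receptor genes through which epithelium is instructed by its neighbours were split. Of 32 tested receptor tyrosine kinase and EGF family genes 16 were higher than the mean of the others, 13 lower and 9 higher than each. Over all genes tested the shares were 37.3%, 41.7% and 19.5% in the same order. Fgfr2, the receptor gene for fibroblast growth factors of the mesenchyme, stood at 1195, 960.4, 948, 945 and 962 CPM in EpCAM+ libraries, against 1.79, 35.2 and 87.04 CPM (lowest, median, highest) in the other 15 (difference 5.30 ± 0.23, adjusted p = 5.4e-14). Met, the receptor gene of hepatocyte growth factor, averaged 379 ± 54.3 CPM (difference 5.23 ± 0.19) and Erbb3, a neuregulin receptor gene, 165 ± 19.2 CPM (difference 5.44 ± 0.17). Its partner Erbb2 averaged 102 ± 6.62 CPM (difference 2.23 ± 0.14). Egfr was not among the genes higher than each, at 20.4 ± 1.42 CPM in EpCAM+ and 130.2 ± 26.2 CPM in triple-negative libraries. Of the EGF family ligands, Areg, which encodes amphiregulin, averaged 93.5 ± 29.3 CPM (difference 6.03 ± 0.21) and Tgfa 37.6 ± 2.59 CPM (difference 3.29 ± 0.18), whereas Ereg was lower (-1.99 ± 0.33).

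Of 33 tested genes of secreted signals 15 were higher than the mean of the others, 12 lower and 8 higher than each. These shares lie near those of all genes tested, which were 37.3%, 41.7% and 19.5% in the same order. Shh, the hedgehog ligand gene that epithelium sends to mesenchyme, stood at 25.3, 23.4, 26.4, 23.2 and 27.6 CPM in EpCAM+ libraries, against 0, 0.587 and 1.09 CPM (lowest, median, highest) elsewhere (difference 5.68 ± 0.39, adjusted p = 8.3e-11). Among Wnt ligand genes Wnt7b and Wnt3a were higher than each (4.82 ± 0.25 and 3.70 ± 0.44), whereas Wnt7a did not pass the threshold (0.38 ± 0.65, adjusted p = 0.61). Il33, an alarmin gene, averaged 356 ± 43.5 CPM in EpCAM+ and 168 ± 24.4 CPM in triple-negative libraries, and was higher than each (difference 4.42 ± 0.17). Csf2, the cytokine gene on which alveolar macrophages depend, averaged 16.96 ± 2.66 CPM in EpCAM+ and 28.3 ± 8.96 CPM in CD45+ libraries, and so was not. Cxcl15, the chemokine gene also known as lungkine, averaged 9167 ± 945 CPM (difference 8.28 ± 0.45). Tslp, an alarmin gene of airway epithelium, was lower than each, at 0.0616 ± 0.0753 CPM in EpCAM+ and 5.83 ± 0.468 CPM in triple-negative libraries.

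The basement membrane list had shares near those of all genes tested, of which 37.3% were higher, 41.7% lower and 19.5% higher than each. In it 14 of 33 tested members were higher, 13 lower and 6 higher than each (median difference -0.04). Lamb3 and Lama3, chain genes of the laminin that anchors epithelium, were both higher than each. Lamb3 stood at 369, 354, 329.9, 362 and 337 CPM in EpCAM+ libraries (difference 5.67 ± 0.39, adjusted p = 6.7e-11), and Lama3 averaged 106 ± 5.63 CPM (difference 3.18 ± 0.31). The chains found in laminins of mesenchyme and vessels went the other way, with -3.70 ± 0.34 for Lama2 and -3.46 ± 0.25 for Lama4. Itgb6, an integrin subunit gene whose product activates TGF-beta, averaged 18.96 ± 2.74 CPM (difference 2.89 ± 0.47). Nid1, which encodes a linker of laminin and collagen, was lower than each (-4.84 ± 0.23), at 6.15 ± 1.51 CPM in EpCAM+ and 1075 ± 358 CPM in triple-negative libraries.

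Host defence genes were mostly higher. Of 26 tested members 19 were higher than the mean of the others, 5 lower and 18 higher than each (median difference 4.37), though this list holds surfactant genes described above. The shares of all genes tested were 37.3%, 41.7% and 19.5%. Chil1, a chitinase-like protein gene, averaged 5243 ± 504 CPM (difference 7.86 ± 0.38), Wfdc2 1653 ± 89.6 CPM (difference 6.63 ± 0.43) and Lcn2, which encodes an iron-sequestering lipocalin, 602 ± 116 CPM (difference 6.17 ± 0.21). Pigr, whose product carries IgA across airway cells, averaged 45.9 ± 22.1 CPM (difference 4.22 ± 0.39). C3, the complement gene, went the other way at 644.9 ± 35.4 CPM in EpCAM+ and 11382 ± 949 CPM in triple-negative libraries.

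MHC class II genes, which type II cells are known to express, stood between leukocytes and the rest. Of 10 tested members 7 were higher than the mean of the others, 3 lower and 0 higher than each. Among all genes tested the shares were 37.3%, 41.7% and 19.5%. Cd74, the invariant chain gene, stood at 4472, 4767, 5170.2, 5426 and 4113 CPM in EpCAM+ libraries, against 8698, 8268, 5816, 8767 and 9791 CPM in CD45+, 374 to 1630.0 CPM in CD31+ and 65.4 to 297 CPM in triple-negative libraries. No EpCAM+ library reached the lowest CD45+ one, and every EpCAM+ library lay above every CD31+ and triple-negative one. EpCAM+ was lower than CD45+ (-0.79 ± 0.34, adjusted p = 0.04). Ptprc, by comparison, averaged 7.15 CPM in EpCAM+ and 1441 CPM in CD45+ libraries. H2-Aa and H2-Ab1 averaged 1227 ± 116 and 924 ± 118 CPM in EpCAM+, against 2704 ± 426 and 2758 ± 458 CPM in CD45+ libraries. Ciita, the class II transactivator gene, averaged 59.99 ± 5.20 CPM in EpCAM+ and 97.6 ± 16.6 CPM in CD45+ libraries. The members lower than the mean were H2-DMb2, H2-Oa and H2-Ob, of which H2-Ob, known from B cells, averaged 2.43 ± 1.21 CPM in EpCAM+ and 275 ± 68.4 CPM in CD45+ libraries.

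Lipid synthesis, which supplies surfactant, was higher nearly throughout. Of 29 tested members 26 were higher than the mean of the others, 2 lower and 23 higher than each (median difference 2.43). For all genes tested these shares were 37.3%, 41.7% and 19.5%. Scd1, a fatty acid desaturase gene, stood at 13180.1, 11027, 12124, 11407 and 10688 CPM in EpCAM+ libraries, against 34.9, 189 and 368 CPM (lowest, median, highest) in the other 15 (difference 6.23 ± 0.19, adjusted p = 1.7e-16). Fasn, the fatty acid synthase gene, averaged 3205 ± 337 CPM (difference 5.26 ± 0.13), and Chka, the kinase gene that starts phosphatidylcholine synthesis, 327 ± 29.4 CPM (difference 3.94 ± 0.07). The sterol gene Hmgcs1 had a smaller difference of 1.95 ± 0.08. Srebf1, the regulator of fatty acid genes, had 2.25 ± 0.06 and Srebf2, that of sterol genes, 1.06 ± 0.06. Pla2g1b, a secreted phospholipase gene best known from pancreas, had the largest difference of the list, 8.04 ± 0.27, at 74.01 ± 2.07 CPM. Elovl6 and Dgat1 were lower (-3.495 ± 0.14 and -1.47 ± 0.12).

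Enzymes for foreign compounds and retinoids showed no such uniformity. Of 28 tested members 16 were higher than the mean of the others, 7 lower and 10 higher than each. In the same order the shares of all genes tested were 37.3%, 41.7% and 19.5%. Ces1d, a carboxylesterase gene, averaged 1273 ± 82.1 CPM (difference 4.45 ± 0.34) and Gsta4 115 ± 6.51 CPM (difference 4.42 ± 0.23). The cytochrome gene Cyp1a1 averaged 9.34 ± 8.92 CPM in EpCAM+ and 985 ± 839.5 CPM in CD31+ libraries, and Fmo2, a flavin monooxygenase gene, 86.99 ± 20.7 CPM in EpCAM+ and 1936 ± 349.9 CPM in triple-negative libraries.

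Transcripts encoded by mitochondria took 1.81% ± 0.287 of counts in EpCAM+ libraries, against 0.356% ± 0.0327 in CD31+, 0.467% ± 0.0356 in CD45+ and 0.392% ± 0.0939 in triple-negative libraries. Each difference had an exact two-sided permutation p of 0.00794 (0.00794 after adjustment over the 3), the smallest possible, and no library overlapped. Here too libraries were permuted as if independent, although fractions share animals. The share covers all identifiers on the mitochondrial chromosome as the authors counted them. All 8 tested protein-coding mitochondrial genes were higher than each, with differences from 1.34 to 3.12. mt-Cytb, a subunit gene of respiratory complex III, stood at 4857, 5519.8, 6633, 6292 and 7158 CPM in EpCAM+ libraries. The other 5 protein-coding mitochondrial genes had at most 71 counts over the 5 EpCAM+ libraries and were not tested, so the share holds almost nothing of these.

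Cell cycle genes mostly did not mark EpCAM+ libraries. Mki67, the proliferation marker gene, averaged 13.5 ± 4.52 CPM in EpCAM+ and 102 ± 54.7 CPM in CD45+ libraries. Of 25 tested cell cycle genes 4 were higher and 11 lower, against 37.3% and 41.7% of all genes tested. The counts were 2 and 13 with scaling to library totals, 3 and 7 with no low-count filter, and 2 and 5 without libraries 2 and 4 of each fraction in number order. Bub1, a mitotic checkpoint kinase gene, was the member higher than each. It stood at 18.03, 15.4, 12.7, 13.00 and 17.01 CPM in EpCAM+ libraries, against 0.142, 0.655 and 10.2 CPM (lowest, median, highest) in the other 15 (difference 4.08 ± 0.20, adjusted p = 2.9e-13). Its partner Bub1b, at 13.4 ± 1.18 CPM in EpCAM+ and 21.1 ± 11.5 CPM in CD45+ libraries, was not. Immediate early genes, which tissue dissociation is known to induce, were lower for 14 of 20 members and higher for 2 (Jun, 0.61 ± 0.12, and Jund, 0.38 ± 0.11). With scaling to library totals the call of Jund was lost (0.20, adjusted p = 0.0712). Fos averaged 1788 ± 418 CPM in EpCAM+ and 5175 ± 781 CPM in triple-negative libraries, and 1109 ± 280.0 CPM in CD31+ libraries.

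Markers of the other fractions were low in EpCAM+ libraries. All 16 leukocyte markers tested were lower than the mean of the others, as were 15 of 16 endothelial, 15 of 16 mesenchymal, all 11 mesothelial and 7 of 8 erythroid and platelet markers. Over all genes tested 41.7% were lower. Summed over its list, the leukocyte level in EpCAM+ libraries was 42.1 to 97.2 CPM, against 9309 to 10950.1 CPM in CD45+ libraries, and the median marker stood at 0.486% of its CD45+ level. For endothelial markers the sums were 392 to 662.97 CPM in EpCAM+ and 29405 to 33152 CPM in CD31+ libraries (median marker 1.20%). For mesenchymal markers they were 623.8 to 703 CPM in EpCAM+ and 44058 to 60673 CPM in triple-negative libraries (0.481%), and for mesothelial markers 32.2 to 72.9 CPM in EpCAM+ and 1413 to 2671 CPM in triple-negative libraries (2.46%). No marker of these lists was at 0 in all 5 EpCAM+ libraries. Col6a1, a collagen VI gene listed as mesenchymal, was the only member of these lists that was higher than the mean log2 level of the others. It averaged 444 ± 19.9 CPM in EpCAM+ and 44.6 ± 16.4 CPM in CD31+ libraries. Its highest level was in triple-negative libraries, at 1829 ± 287 CPM.

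The 10 most negative differences among genes lower than each, with at least 10 CPM over the other fractions, included several genes of lymphocytes. All but Ebf1 were highest in CD45+ libraries. Thy1, a surface glycoprotein gene of T cells, averaged 0.675 ± 0.406 CPM in EpCAM+, 405 ± 90.04 CPM in CD45+, 16.3 ± 6.35 CPM in CD31+ and 55.6 ± 39.3 CPM in triple-negative libraries (difference -6.74 ± 0.52, adjusted p = 4.0e-10). Icos, a T cell costimulatory receptor gene, Cd96 and Cd8b1 had differences of -7.01 ± 0.60, -6.48 ± 0.64 and -6.42 ± 0.65. Ebf1, the B cell factor gene that mesenchyme also uses, averaged 0.217 ± 0.0456 CPM in EpCAM+ and 84.6 ± 30.5 CPM in triple-negative libraries (difference -7.14 ± 0.37). Plac8 averaged 1.498 ± 0.365 CPM in EpCAM+, 442 ± 109.6 CPM in CD45+ and 115 ± 28.5 CPM in CD31+ libraries (difference -6.43 ± 0.24). Serpinb10, a serpin gene, had 0 counts in all 5 EpCAM+ libraries and 40.6 ± 8.80 CPM in CD45+. Adamts14, Slc28a2 and Podnl1 completed the group, with differences of -7.17 ± 0.35, -6.44 ± 0.59 and -6.23 ± 0.51.

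Other genes were shared by EpCAM+ and a single other fraction, being at least 2-fold higher in EpCAM+ than in the remaining 2 but not higher than in that one. Such genes made up 1.19% of those tested for CD31+, 2.29% for CD45+ and 3.31% for triple-negative libraries. With CD31+ the highest levels belonged to Cd36, a fatty acid translocase gene, Adgrf5, an adhesion receptor gene that controls surfactant pools, Bcam, Emp2 and the laminin chain gene Lama5. Cd36 averaged 1511 ± 135 CPM in EpCAM+ and 3147 ± 250.2 CPM in CD31+ libraries, and Adgrf5 1255 ± 93.5 CPM in EpCAM+ and 4962 ± 269 CPM in CD31+ libraries. With CD45+ they were Cd74, Tmsb4x, an actin-binding thymosin gene, H2-Aa, H2-Ab1 and H2-Eb1. With triple-negative libraries they were Rnase4, Gas6, Ptms, Ltbp3 and Dag1. Rnase4, a secreted ribonuclease gene, averaged 1383 ± 156 CPM in EpCAM+ and 978 ± 73.6 CPM in triple-negative libraries (difference between the pair 0.499 ± 0.28, adjusted p = 0.11). Gas6, the ligand gene of TAM receptors, averaged 771 ± 31.5 CPM in EpCAM+ and 982 ± 46.00 CPM in triple-negative libraries.

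Epithelial transcripts were measurable in every other library, and markers of other cell types moved with them in part. For members higher than each by at least 2-fold and at 10 CPM or more, the level was expressed as a percentage of the EpCAM+ mean and the median taken within each library. For 23 type II genes these medians ran from 0.0958% to 0.719% in CD31+, 0.204% to 1.21% in CD45+ and 0.0759% to 0.454% in triple-negative libraries. For 18 club genes they ran from 0.953% to 9.85% in CD31+, 1.34% to 11.2% in CD45+ and 1.01% to 6.45% in triple-negative libraries, and for 21 ciliated genes from 0.463% to 3.66%, 0.692% to 3.77% and 0.859% to 4.98% in the same order. In each fraction the same 2 libraries were lowest for the type II, club and ciliated lists alike, namely Saline_CD31_650 and Saline_CD31_652, Saline_CD45_645 and Saline_CD45_647, and Saline_Negative_660 and Saline_Negative_662. The last pair were also those with low Ager. In number order all 3 pairs are libraries 2 and 4 of their fraction. Summed endothelial markers were lowest in them too, at 684 and 536 CPM in the CD45+ pair, against 902 to 1421 CPM in the other 3, and at 725 and 650.5 CPM in the triple-negative pair, against 961 to 1628 CPM. Summed leukocyte markers were 149 and 65.1 CPM in the triple-negative pair, against 201 to 309 CPM, and 80.3 and 51.9 CPM in the CD31+ pair, against 83.5 to 182 CPM. Among EpCAM+ libraries those in the same places, Saline_EpCAM_655 and Saline_EpCAM_657, also had the lowest summed endothelial (464 and 392 CPM, against 627.9 to 662.97 CPM) and mesothelial markers (32.4 and 32.2 CPM, against 47.5 to 72.9 CPM). Not every list followed these places. Their summed leukocyte markers were 88.8 and 60.4 CPM, against 42.1 to 97.2 CPM. The lowest summed mesenchymal level of EpCAM+ libraries, 623.8 CPM, was in Saline_EpCAM_654. In CD31+ libraries the mesenchymal sum was highest in Saline_CD31_650, at 1839 CPM, and lowest in Saline_CD31_652, at 977 CPM. Without the 8 libraries in places 2 and 4, 3483 genes were higher than each, and 3367 of the 3673 kept that call. These levels were not subtracted from the other fractions in any difference above.

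**Figure D5:**
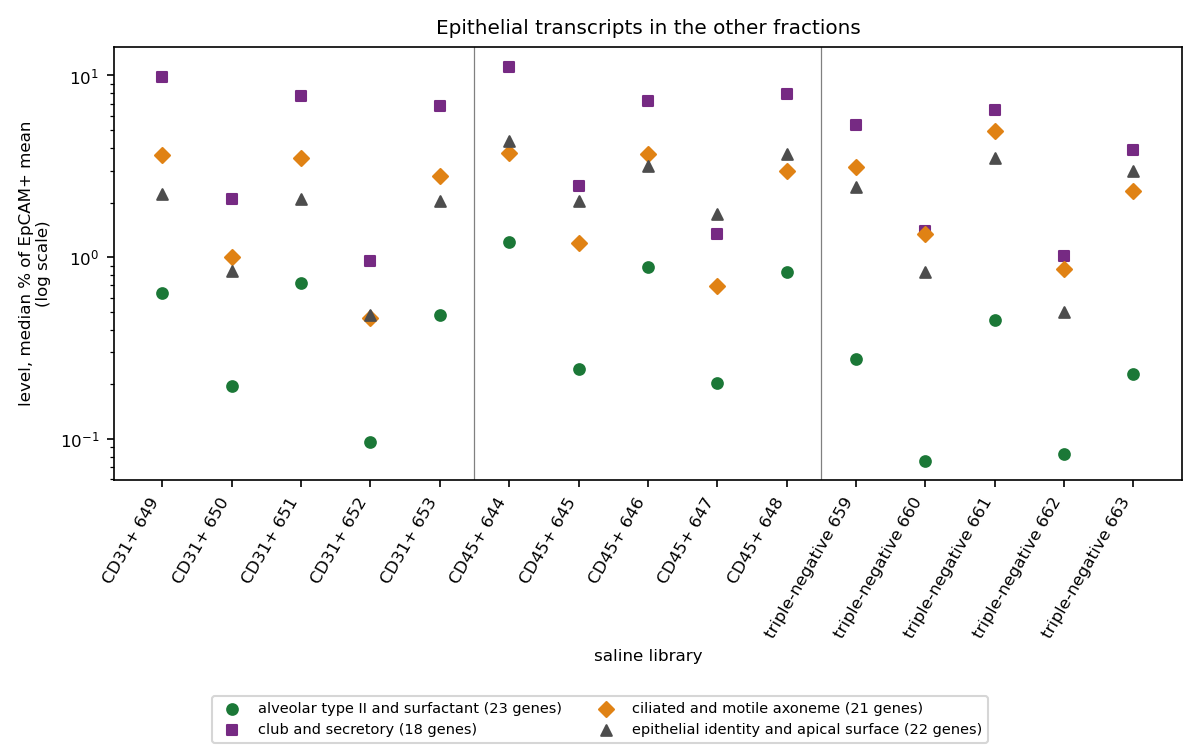
Level of epithelial genes in each of the 15 other saline libraries (horizontal axis), as the median over list members of the percentage of the EpCAM+ mean (vertical axis, log scale), for 4 lists (symbols). Saline_CD31_650, Saline_CD31_652, Saline_CD45_645, Saline_CD45_647, Saline_Negative_660 and Saline_Negative_662 are low for the type II, club and ciliated lists, and club genes lie above type II genes in every library.

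Bleomycin-treated lungs of the same series were sorted in the same way, with 8 EpCAM+, 7 CD31+, 8 CD45+ and 8 triple-negative libraries and no sample in common with the saline fit. In a separate fit of these, which tested 3582 of the 3673 genes, 3751 genes were higher in EpCAM+ than in each other fraction, which is 20.3% of those tested. They included 2853 of the 3673 genes of saline lungs, which is 77.7% of the saline and 76.1% of the bleomycin genes.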

How the data were processed

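RNA of sorted lung cells was sequenced from stranded total RNA libraries, per the labels' protocols. The authors deposited raw counts of reads per Entrez gene identifier, 36528 identifiers by 51 libraries, on GRCm38 per the submitters' processing notes. The aligner, counter and annotation are not given in the sources used here. Libraries of each saline fraction were separate samples, and their deposited files equalled the table.

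Identifiers were named from RefSeq GRCm38.p6 (31049) or GENCODE (78), and 5401, holding 1.62% of saline counts, had no symbol and stayed in the tests. The 20 saline libraries, 17789524 to 36514885 counts each, were fitted in 1 model of 4 groups with edgeR 4.0.16 in R 4.3.3 (filterByExpr, TMM factors, robust quasi-likelihood F test, Benjamini-Hochberg adjustment over 18799 genes, threshold 0.05). CPM use TMM-scaled library sizes, and SE is the log2 difference divided by the root of F. In simulated counts with 200 changed genes, 98.5% of 2-fold changes were recovered against the mean and in each pair. Of 1.5-fold changes 89.6% were recovered against the mean and 44.8% in each pair. The unchanged genes among the 18376 fitted gave 16 false calls against the mean. Apart from the changed genes the simulated fractions shared 1 profile, unlike the real ones, so these rates need not hold for the real libraries. The alternatives used DESeq2 1.42.0, other scalings, no filter, all libraries and each library left out. Added after seeing the data was the pass of the table's columns (odd library numbers first). So was leaving out libraries 2 and 4 of each fraction in number order. Within a fraction both use 1 split, since libraries 2 and 4 are a whole pass. This is the first pass for EpCAM+ and CD45+ and the second for CD31+ and triple-negative libraries. A single pass term therefore cannot take up a shift that places 2 and 4 share in all fractions. Promoters were scanned for motifs on both strands, and 19 of 24 type II, 25 of 29 ciliated and 18 of 26 club genes, tested or not, had a promoter. Python 3.11.15 was used for shares, with exact permutation tests over 252 splits of 5 against 5 libraries.

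The members and the 28 gene lists (577 genes, 542 of them tested) were chosen with earlier results of these data known. Leading genes were named by rank of difference or level among genes higher or lower than each fraction, and list members by level or difference. Results for some genes are not reported here.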

Additional observations from a re-analysis of the deposited data

Results flagged for a closer look

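The 196 gene levels given above for the 5 libraries of a fraction, as values, a range or a mean with its SD, were checked for a library far from the other 4, as were 4 library measures in each of the 4 fractions (16 groups). Of these 212 groups 9 had one, and chance gives about 1 in 20.

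Saline_EpCAM_654 stood apart 4 times. It had the lowest Foxj1 level, 81.8 CPM, against 120 to 134 CPM in the other 4. It had the highest levels of Fasn, 3799 CPM (2970 to 3139 CPM in the others), Fgfr2, 1195 CPM (945 to 962 CPM), and Kcne2, 222 CPM (189 to 194 CPM). In Saline_EpCAM_657 Col6a1 was at 479 CPM (431 to 440 CPM in the others). In Saline_EpCAM_658 Pou2f3 was at 0.0373 CPM, and at 0 in the other 4.

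Among the other fractions, Saline_CD45_646 had a Myb level of 289 CPM, against 13.5 to 31.4 CPM in the other 4, and a Cd24a level of 170 CPM (102 to 119 CPM). Saline_Negative_660 had a C3 level of 13073 CPM (10864.5 to 11085 CPM).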

How the results depend on the processing

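The counts of genes called against the mean, against each fraction and against all 3 stayed within 1.5 times their values under every alternative run. DESeq2 gave 7134 higher and 8013 lower genes, relative log expression factors 7080 and 7766, no filter 8285 and 8122 of 28321 genes, all 51 libraries 7349 and 7860, the column pass as a covariate 6979 and 7824, and leaving out libraries 2 and 4 of each fraction in number order 6680 and 7085. Scaling to library totals lowered the median of all genes by 0.18 (median -0.26, against -0.08) and gave 5851 higher and 9332 lower genes, so that 38.5% of the called genes were higher. Of the 3673 genes higher than each, 83.3% kept that call under it, 91.7% without those 8 libraries, and 95.7% to 99.3% under the others. The median of the basement membrane list (-0.04) became 0.08 with the column pass and 0.09 without the 8 libraries, and no other list median changed sign under these 7 settings. Without the 8 libraries 3 of 8 tuft and ionocyte genes were lower, against 5.

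Leaving out 1 library at a time gave 6925 to 7163 higher and 7575 to 7889 lower genes, and 3628 to 3783 higher and 2598 to 2921 lower than each. Of 4806 combinations of a gene with a value in the text and an alternative, 4769 kept their direction and side of the threshold, 28 lost the call, 7 gained it and 2 turned sign. Those belonged to Jup, Ctnnd1, Cyp1a1, Jund, Hopx, Tjp1, Fos, Myb, Pou2f3, Sox9 and Wnt7a. The last 4 moved without the 8 libraries, where Myb (1.43) and Pou2f3 (-2.29) missed the threshold and Sox9 (0.00050) and Wnt7a (-0.0063), not called before, turned sign. Hopx gained its call there as well (-0.79). Cyp1a1 missed the threshold without Saline_EpCAM_654 or Saline_EpCAM_658 (-2.55 and -2.52) and without the 8 libraries (-2.95). The passes of the columns also separate libraries 2 and 4 of each fraction from the rest of that fraction. Between the passes, 4 of 178 genes had opposite signs, none of them called against the mean. The difference in the first and the second pass was -1.03 and 0.20 for Hopx, -0.10 and 1.76 for Rtkn2, -0.11 and 1.18 for Wnt7a, and -0.24 and 0.06 for Vegfa. Another 18 genes differed by more than 1 between passes, with the same sign.

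No paired analysis was possible because the replicate numbers in the labels differ between fractions, and which libraries share an animal was not given. The order of the numbers within a fraction was not taken as a pairing. Depth limits genes such as Pou2f3 and Krt5, at a few CPM or less, where fitted differences depend on few counts. The same holds for genes barely counted in the other fractions, such as Gm31251, so their rank by difference is uncertain.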
